A study of Mus musculus with 12 samples.

Results

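The mitosis genes described here are 35 genes that dividing cells use to enter mitosis, attach and separate their chromosomes, and divide into daughter cells. They were found in the count table by matching Ensembl identifiers to the 35 symbols, which gave 35 of its 55573 genes, and 35 of the 35 were among the 19174 genes with enough counts to test. The cells were MEFs, fibroblasts cultured from mouse embryos (C57BL/6, E13.5), that carry a doxycycline-inducible cassette of Oct4, Sox2, Klf4 and Myc (OSKM), the factors that can turn fibroblasts into pluripotent stem cells. Cells of 3 embryos, called clones 1, 2 and 3 per the labels, each gave 1 library of 4 groups. MEF was grown in stem cell medium alone, MEF+B12 with vitamin B12 at 2 µM, OSKM with doxycycline at 1 µg/ml, and OSKM+B12 with doxycycline and B12 together. RNA was collected at 72 h in all 12 libraries. The cassette was present in the cells of every group, and doxycycline was given only to the OSKM groups, so the drug and the factors cannot be told apart. The doxycycline concentration is the labels' value, and the study's methods give another unit for cultured cells. Each clone is 1 embryo, and the year in the titles of clone 1 libraries differs from that of the others.

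Most of these genes are transcribed in a wave late in the cell cycle, so in a growing culture their mRNA follows the share of cells that are preparing to divide. Cyclins A and B activate CDK1 to start mitosis, the Aurora, Polo-like and BUB kinases control spindle assembly and the checkpoint that waits for all chromosomes to attach, and the anaphase-promoting complex with CDC20 and UBE2C then marks cyclins for destruction. Outside dividing cells, a repressor complex holds the same genes off through a short promoter element, the cell cycle genes homology region (CHR), often found near CCAAT boxes, and in dividing cells FOXM1 joins the activating form of that complex. RNA came from whole cultures, so fewer dividing cells and less mRNA in each dividing cell cannot be told apart here.

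Library totals ran from 56971244 to 79236795 counted read pairs, and the 35 genes together took 0.0922% to 0.150% of them. Pou5f1, which encodes Oct4, was at 0.468 CPM (counts scaled to library size) or less in the 6 libraries without doxycycline and at 2.34 to 20.7 CPM in the 6 with it, lowest in clone 3. Pou5f1 and Sox2 rose with doxycycline, without B12 by 5.65 ± 0.21 (SE) and 4.19 ± 0.41 (SE) and with B12 by 6.28 ± 0.23 (SE) and 4.26 ± 0.41 (SE) on the log2 scale. Neither Klf4 nor Myc passed the threshold, but Myc differed by clone. In clones 1, 2 and 3 it measured 22.5, 16.4 and 18.6 CPM in MEF and 53.4, 43.97 and 20.05 under OSKM. With B12 it measured 23.3, 18.7 and 20.2 CPM in MEF+B12 and 50.4, 43.6 and 21.9 under OSKM+B12. The OSKM clone 1 library stood apart. Over 1519 pseudogenes, its log2 CPM differed from the mean of the clone's other libraries with an SD of 0.556, against 0.114 to 0.247 in the other 11 libraries. Counts of called mitosis genes that use it are also given without it, while values of single genes and of other lists mostly include it. The Y-linked gene Ddx3y was at 80.2 to 97.05 CPM in clone 1 and had 0 counts in clones 2 and 3, so the clones differ in sex as well as in embryo and title year. Fibroblast markers were abundant, with Col1a1, a collagen chain, between 25440 and 45818 CPM. Macrophage markers were present in every library, as given below beside the results they move with, while defining markers of endothelium (Pecam1), muscle (Myod1) and epithelium (Epcam) were at or under 0.279 CPM in every library. Not all markers of those lists were low, since Tek, an endothelial receptor, reached 139 CPM and the keratin gene Krt19 17.5 CPM. Of the neural markers, Tubb3 was at 6.36 to 19.4 CPM and Map2 at 10.4 to 18.1 CPM, while Sox10 was at 1.07 CPM or less.

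The promoters of the mitosis genes are shown first because they hold sequence features that most of the set shares and that its choice did not use. RefSeq windows of 300 bases (250 before and 50 after the annotated start site, build GRCm38.p6) were matched by symbol for 30 of the 35 genes, and Ccna2, Foxm1, Aurkb, Kif20a and Tpx2 were not matched. The CHR letters TTTGAA, on either strand, were found in 24 of 30 genes (80%), against 20.2% of the 27025 genes with a window. The CHR variant TTCGAA was in 3 of 30, against 1.8%. CCAAT, on either strand, was in 24 of 30 genes, against 41.1%, and 22 of 30 held CCAAT together with a form of the CHR (73.3%), against 8.61% of all genes. Counting a place shared by overlapping windows of a gene once, there were 34 CHR matches, of which 24 lay within 50 bases of a start site. Positions were not counted over all genes with a window, so no background share can be set beside this. Related lists shared these features in part. Of 31 further spindle and cytokinesis genes with a window, 74.2% held CCAAT, 67.7% a form of the CHR and 58.1% both, and of 33 further kinetochore and checkpoint genes the shares were 63.6%, 42.4% and 30.3%. Of 34 genes of DNA replication and S phase they were 58.8%, 20.6% and 17.6%, and of 16 subunits and regulators of the anaphase-promoting complex 37.5%, 25% and 6.25%. The windows of Nuf2, Birc5 and Nusap1 held none of the letters searched. A match is a stretch of letters and not a site shown to be used in these cells.

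The 5 windows below are those of the genes with the smallest p-values for B12 that have a RefSeq window (values further on), printed 5′ to 3′ on the gene's strand, with every CCAAT and CHR match on either strand in capitals.
Bub1, chr2:127831810-127832109, minus strand: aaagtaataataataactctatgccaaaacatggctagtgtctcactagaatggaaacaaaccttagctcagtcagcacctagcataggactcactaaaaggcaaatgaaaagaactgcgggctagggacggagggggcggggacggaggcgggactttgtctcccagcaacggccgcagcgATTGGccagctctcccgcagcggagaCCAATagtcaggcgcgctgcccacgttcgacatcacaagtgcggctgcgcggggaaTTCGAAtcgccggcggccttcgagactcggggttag
Cdca8, chr4:124936868-124937167, minus strand: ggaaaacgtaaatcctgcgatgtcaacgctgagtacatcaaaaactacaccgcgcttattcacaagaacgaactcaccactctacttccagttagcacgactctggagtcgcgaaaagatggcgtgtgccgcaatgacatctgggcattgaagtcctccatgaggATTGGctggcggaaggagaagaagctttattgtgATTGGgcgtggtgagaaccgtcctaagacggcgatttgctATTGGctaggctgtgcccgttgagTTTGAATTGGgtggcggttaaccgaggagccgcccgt
Aurka, chr2:172370521-172370820, minus strand: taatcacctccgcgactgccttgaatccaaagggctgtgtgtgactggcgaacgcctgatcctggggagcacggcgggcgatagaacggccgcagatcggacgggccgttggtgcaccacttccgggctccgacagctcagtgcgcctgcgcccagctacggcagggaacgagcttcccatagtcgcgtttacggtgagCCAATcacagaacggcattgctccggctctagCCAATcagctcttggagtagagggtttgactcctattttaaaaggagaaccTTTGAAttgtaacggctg
Plk1, chr7:122159185-122159484, plus strand: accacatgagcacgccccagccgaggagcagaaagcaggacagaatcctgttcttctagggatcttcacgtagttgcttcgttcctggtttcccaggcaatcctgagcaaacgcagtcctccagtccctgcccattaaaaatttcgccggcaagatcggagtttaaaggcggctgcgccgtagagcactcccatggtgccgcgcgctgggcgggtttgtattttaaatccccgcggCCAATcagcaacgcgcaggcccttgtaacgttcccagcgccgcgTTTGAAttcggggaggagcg
Ccnb1, chr13:100786437-100786736, minus strand: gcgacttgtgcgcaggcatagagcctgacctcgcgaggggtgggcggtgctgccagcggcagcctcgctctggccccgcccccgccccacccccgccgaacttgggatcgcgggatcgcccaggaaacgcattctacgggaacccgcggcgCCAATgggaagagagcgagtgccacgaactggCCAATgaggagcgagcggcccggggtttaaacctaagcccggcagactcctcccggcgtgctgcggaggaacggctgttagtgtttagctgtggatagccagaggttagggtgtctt
In Aurka and Plk1, TTTGAA lies past the start site, at bases 33 to 38 and 31 to 36, with CCAAT upstream of it. Bub1 carries the variant TTCGAA at bases 15 to 20, also past the start site. In Cdca8 the element shares 1 base with a CCAAT box on the other strand, so they run together in capitals. Ccnb1 holds a pair of CCAAT boxes and no CHR letters in this window.

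**Figure D1:**
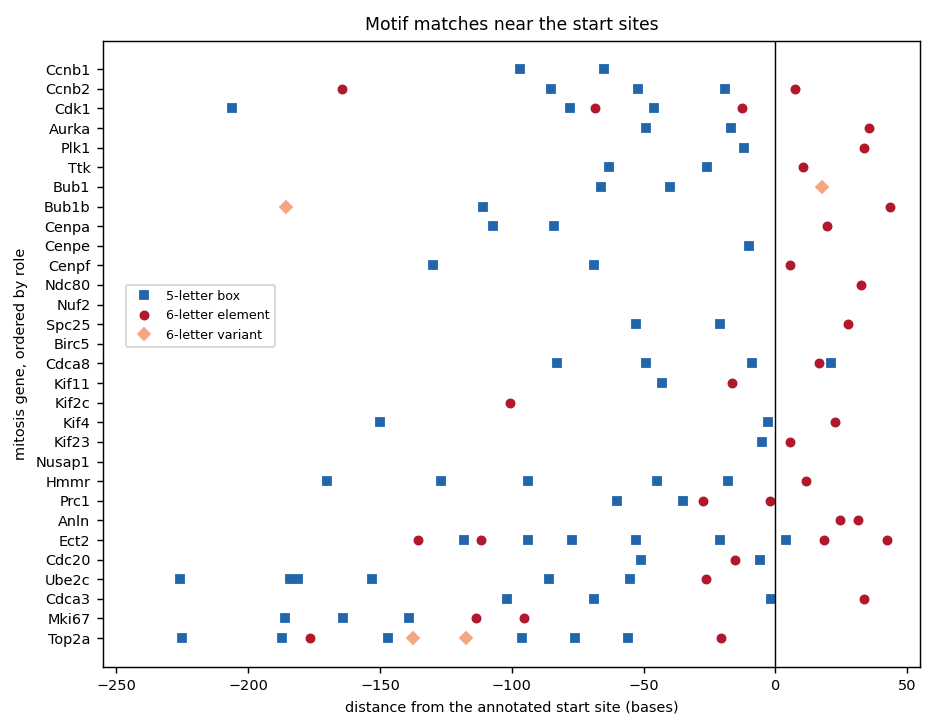
Matches of the 5-letter box CCAAT (squares), the 6-letter element TTTGAA (circles) and its variant TTCGAA (diamonds) on either strand, by distance in bases from the annotated start site (vertical line), in the 30 mitosis genes with a RefSeq window (Ect2 and Prc1 have more than 1 window, drawn on the same line). With a place shared by overlapping windows counted once, 24 of 34 element matches lie within 50 bases of a start site, a share not computed for all genes.

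All 35 genes were well measured. The lowest count of any of them in any library was 437, for Ttk, a checkpoint kinase. Per kilobase of merged exons, which allows levels of different genes to be compared, Ccnb2 (cyclin B2) and Cdc20 led at 17.4 and 17.04 CPM per kb on average over the 12 libraries, with ranges of 14.6 to 22.05 and 14.7 to 20.2. Plk1 (Polo-like kinase) followed at 13.2, Top2a (the topoisomerase that untangles chromosomes) at 13.04, Tpx2 (a spindle assembly factor) at 11.97 and Ccna2 (cyclin A2) at 11.8 CPM per kb. The kinetochore genes sat low, from 4.49 CPM per kb for Spc25 down to 1.19 for Cenpf. Genes of other roles lay in that span too, such as Kif11 at 4.40, Bub1 at 3.99, Ect2 at 3.58 and Kif23 at 3.23. The Cenpf range of 0.769 to 1.52 lay just under that of Ttk at 1.54 to 2.46. Of the 34 neighbours in this order, that was the 1 pair whose ranges over the libraries did not overlap. Within libraries, 7 of the 34 pairs kept 1 order in all 12, among them Cdc20 above Plk1, Ccnb1 above Aurka and Ttk above Cenpf, and the other 27 pairs changed order in at least 1 library. Merged exons include every annotated isoform, so genes with long alternative ends are set low by this scale. Ccnb1, Plk1 and Cdc20 share 27.8%, 18.7% and 26.7% of their 31-base words with other genes, for the most part Ccnb1-ps, Plk-ps1 and Gm7856. Kif20a and Ube2c share 26.7% and 25.3%, with Cdc23 and Tnnc2 for the most part. Words were matched on either strand, while the counting was strand-specific and can keep genes on opposite strands apart. The shares are thus upper limits of what the counting could split between genes.

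**Figure D2:**
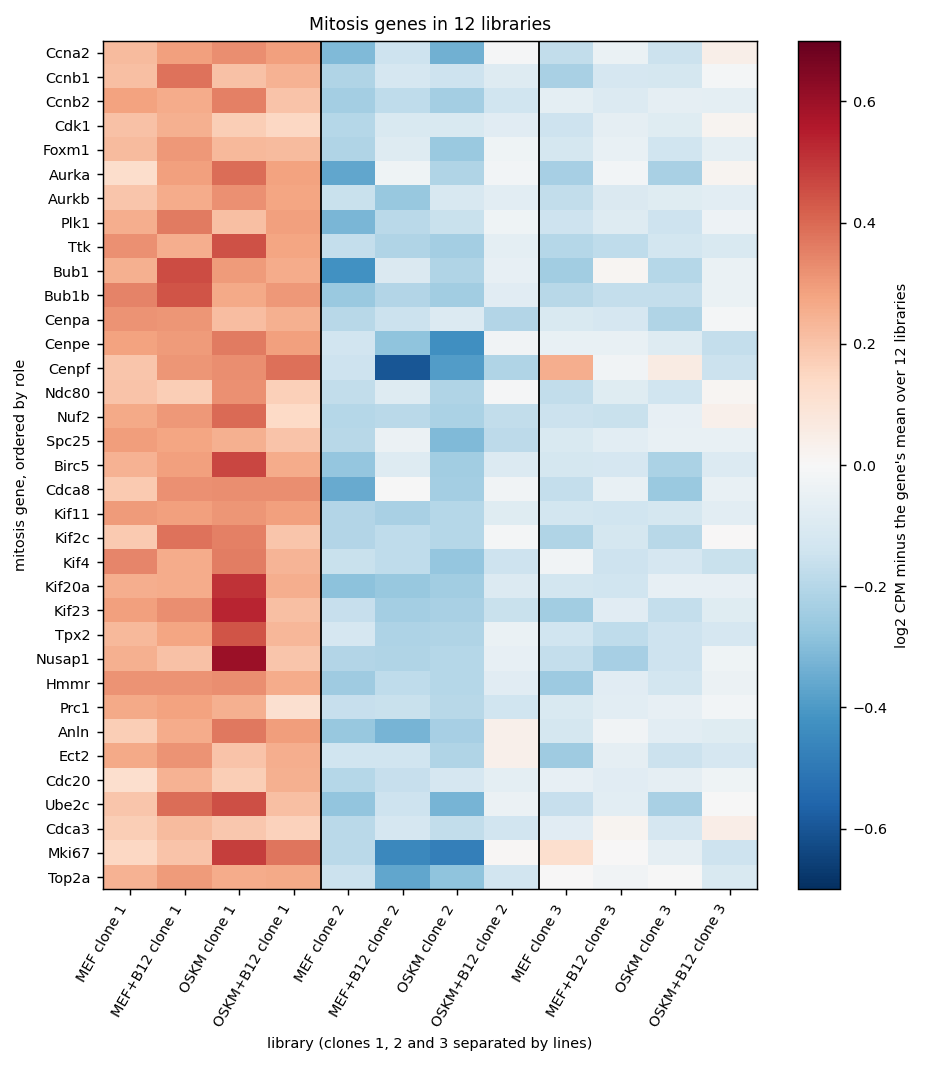
Log2 CPM of each mitosis gene minus its mean over the 12 libraries (colour, red above and blue below the mean), with genes in rows by role and libraries in columns by clone. The 4 clone 1 columns are red in all 35 rows, and the columns of clones 2 and 3 are blue or pale except for Cenpf and Mki67 in MEF clone 3 and a few pale red cells.

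The 35 genes differed more between clone 1 and the other clones than between treatments. Clone 1 was higher than the mean of clones 2 and 3 in 35 of 35 mitosis genes, by 0.28 to 0.51 on the log2 scale (median 0.42, or 1.34-fold), while the median over all 19174 genes tested was 0.00481. In 34 of 35 genes, all 4 clone 1 libraries lay above all 8 libraries of the other clones, as they did in 7.98% of all genes tested, and the reverse order, seen in 8.88% of all genes, was seen in 0 of 35. Cenpf was the exception. The SD within a clone, over its 4 treatments, had a median of 0.08 on the log2 scale over the mitosis genes. The difference of clone 1 was thus several times the spread among treatments. These are descriptions with no test, because the 4 libraries of a clone come from 1 embryo, and embryo, sex and title year cannot be told apart. Clones 2 and 3 were closer to each other, with clone 2 lower than clone 3 in 34 of 35 genes by a median difference of -0.064, against 8998 of 19174 genes lower in clone 2 overall. In size, that difference did not exceed the median SD within a clone.

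Among the regulators that start mitosis, Cdk1 measured 48.8, 36.8 and 38.2 CPM in MEF, 50.2, 39.3 and 40.5 in MEF+B12, 47.6, 39.2 and 39.9 under OSKM, and 46.8, 40.01 and 42.8 under OSKM+B12, each set of 3 in the order of clones 1, 2 and 3, which holds for all such lists here. Every clone 1 value exceeded every other one, by a mean of 0.29 on the log2 scale. Ccnb1, the cyclin that activates CDK1 at mitotic entry, measured 40.7, 30.4 and 30.05 CPM in MEF, 45.8, 32.4 and 32.4 in MEF+B12, 40.5, 31.9 and 32.3 under OSKM, and 41.7, 33.1 and 34.8 under OSKM+B12. Foxm1, the transcription factor for this gene set, measured 38.7, 28.6 and 30.4 CPM in MEF, 40.8, 31.1 and 31.98 in MEF+B12, 38.7, 27.6 and 30.1 under OSKM, and 38.5, 32.5 and 31.6 under OSKM+B12. Both were again higher in clone 1, by 0.39 and 0.36, with no overlap, and the treatments of a clone lay close together. The clone 1 difference of the other cyclins was 0.42 for Ccna2 and 0.41 for Ccnb2.

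The mitotic kinases differed by 0.39 (Aurkb) to 0.51 (Bub1b) between clone 1 and the others, and Bub1b, a checkpoint kinase, had the highest difference of the 35 genes. Plk1 measured 34.3, 23.04 and 25.96 CPM in MEF, 36.97, 25.2 and 26.99 in MEF+B12, 33.2, 25.8 and 25.97 under OSKM, and 35.1, 28.2 and 28.1 under OSKM+B12. Aurkb, the kinase of the chromosomal passenger complex, measured 22.3, 17.6 and 17.3 CPM in MEF, 23.4, 16.2 and 18.2 in MEF+B12, 24.4, 18.1 and 18.4 under OSKM, and 23.6, 18.5 and 18.6 under OSKM+B12. In both, no clone 1 value fell among the values of the other clones. The partners of Aurora B in that complex behaved alike, Birc5 (survivin) with 25.7 to 29.97 CPM in the 4 clone 1 libraries and 17.9 to 20.4 CPM in the other 8, and Cdca8 (borealin) with 22.1 to 24.4 CPM in the 4 clone 1 libraries and 15.2 to 19.4 CPM in the other 8. Birc5 measured 25.7, 17.9 and 19.9 CPM in MEF, 26.4, 20.4 and 19.98 in MEF+B12, 29.97, 18.3 and 18.6 under OSKM, and 25.98, 20.2 and 20.3 under OSKM+B12, highest in the OSKM clone 1 library.

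Kinetochore genes covered 0.32 (Ndc80) to 0.46 (Cenpe). Cenpa, the histone variant that marks the centromere, measured 26.9, 18.8 and 20.05 CPM in MEF, 26.7, 19.4 and 19.9 in MEF+B12, 25.1, 20.2 and 18.7 under OSKM, and 25.6, 18.8 and 21.4 under OSKM+B12, with clone 1 on top in every group. Cenpf, a large kinetochore protein, measured 20.6, 16.3 and 21.4 CPM in MEF, 22.2, 11.9 and 17.7 in MEF+B12, 22.5, 13.7 and 18.7 under OSKM, and 23.5, 15.5 and 16.2 under OSKM+B12. Its MEF clone 3 value lay above the lowest clone 1 value, so the order did not hold for it, and clone 2 was lowest in all 4 groups. Cenpf also had the largest difference of clone 2 from clone 3, -0.37 on the log2 scale.

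The kinesins and spindle genes gave 0.34 (Prc1, which bundles the central spindle) to 0.51 (Kif23, a cytokinesis motor). Kif11, the motor that pushes spindle poles apart, measured 39.9, 28.1 and 29.8 CPM in MEF, 39.7, 27.7 and 29.4 in MEF+B12, 40.3, 28.3 and 29.9 under OSKM, and 39.6, 30.6 and 30.9 under OSKM+B12, and its within-clone SD of 0.0414 on the log2 scale was the smallest of the 35. Nusap1, a spindle microtubule binder, measured 26.9, 19.7 and 20.2 CPM in MEF, 26.1, 19.6 and 19.3 in MEF+B12, 34.2, 19.7 and 20.4 under OSKM, and 25.9, 21.8 and 22.2 under OSKM+B12, printed because its values had been seen to step up in 1 library. Its OSKM clone 1 value stood 0.35 above MEF clone 1 on the log2 scale, the largest such step among the 35 genes in clone 1, and 19 of 35 genes had their highest value in that library, which is the 1 that stood apart over pseudogenes. Without it, the order of clone 1 above the others held in the same number of genes, 34 of 35.

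Of the genes that end mitosis, Cdc20, the activator of the anaphase-promoting complex, measured 34.3, 27.5 and 30.4 CPM in MEF, 37.4, 28.3 and 29.96 in MEF+B12, 35.7, 29.2 and 30.3 under OSKM, and 37.7, 30.1 and 31.05 under OSKM+B12. Ube2c, its ubiquitin-conjugating enzyme, measured 27.7, 19.99 and 21.7 CPM in MEF, 31.7, 21.9 and 23.01 in MEF+B12, 33.1, 19.3 and 20.7 under OSKM, and 27.95, 23.5 and 24.1 under OSKM+B12. The within-clone SD was 0.05 for Cdc20 and 0.12 for Ube2c on the log2 scale, and clone 1 was highest in every group for both. The smallest clone 1 difference of the 35 was that of Cdca3, a trigger of mitotic entry, at 0.28. Mki67, the proliferation marker Ki-67, measured 118, 93.9 and 116 CPM in MEF, 123, 78.3 and 107 in MEF+B12, 149.8, 76.8 and 102 under OSKM, and 139, 107 and 96.6 under OSKM+B12. Top2a measured 138, 105 and 116 CPM in MEF, 143, 90.2 and 114 in MEF+B12, 139, 95.4 and 116 under OSKM, and 139.6, 106 and 108 under OSKM+B12. Clone 1 was highest in both, but by little over MEF clone 3 for Mki67, the gene with the largest within-clone SD of the 35, 0.17 on the log2 scale. The cytokinesis genes Anln and Ect2 differed by 0.41 and 0.39.

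Other cell cycle genes were graded in the same comparison. All clone 1 libraries lay above the rest in 27 of 38 further spindle and cytokinesis genes (median difference 0.36), 19 of 39 further kinetochore and checkpoint genes (0.32), 11 of 24 genes of entry into mitosis (0.19), 12 of 22 condensin and cohesin regulators (0.18) and 14 of 42 genes of DNA replication and S phase (0.17), where 7.98% of all genes did. Subunits and regulators of the anaphase-promoting complex stood at 3 of 17 (0.065), and inhibitors of the cell cycle at 1 of 15 (0.049). The inhibitors went both ways, with 9 of 15 higher in clone 1. Rbl1 was at 0.30 and Rb1 at 0.20, while Cdkn2a was at -1.28, Cdkn2b at -0.54 and Cdkn1c at -0.39. Fibroblast markers did so in 0 of 13, with a median of -0.087, neural markers in 3 of 7 (median 0.36, higher in 7 of 7), and the tested endothelial, muscle and epithelial markers in 0 of 4 (0.033), 0 of 2 (-0.27) and 0 of 4 (0.81). Macrophage markers were also higher in clone 1, in 14 of 15 genes by a median of 0.43, near the 0.42 of the mitosis genes. Free of overlap were 0 of 15, a count that pools libraries with and without B12, with which these markers moved. Their summed level was 2475 to 3532 CPM in clone 1, 1588 to 2863 in clone 2 and 1406 to 2218 in clone 3. Their part in the clone difference was not tested.

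**Figure D3:**
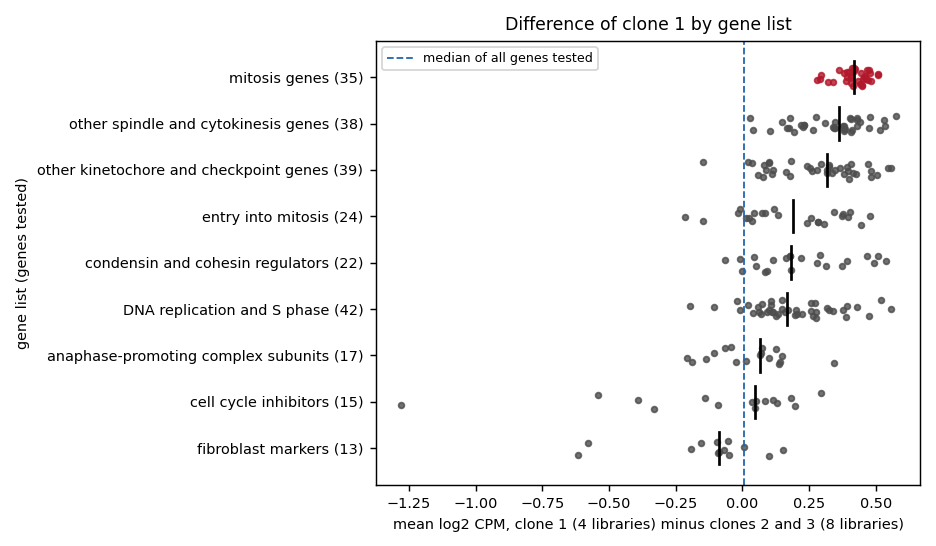
Each point is a gene, placed by its mean log2 CPM in the 4 clone 1 libraries minus that in the 8 libraries of clones 2 and 3, with genes grouped by list, black bars at list medians and a dashed line at the median of all genes tested. The 35 mitosis genes lie between 0.28 and 0.51, while every other list shown reaches down to 0.03 or lower.

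The first comparison the design allows asks what 72 h of OSKM induction did to these genes. Neither induction comparison moved a mitosis gene past the threshold. OSKM against MEF called 0 of 35 at an adjusted p under 0.05 by the quasi-likelihood test of edgeR (0.073% of all genes called), and OSKM+B12 against MEF+B12 called 0 of 35 (0.104% of all genes). At an unadjusted p under 0.05 the counts were also 0 and 0, where 19% and 14.9% of all genes passed, and DESeq2, a second count test, called 0 and 0, with 2.54% and 2.17% of all genes. The fitted differences ran from -0.11 (Cenpf) to 0.15 (Aurka) without B12 and from -0.071 (Bub1) to 0.17 (Mki67) with it, on the log2 scale. Their medians were 0.041 and 0.029, against -0.0081 and 0.0017 over all genes tested. With B12 the direction of the median depended on the clones, since it was -0.01 (14 of 35 higher) without clone 2, 0.0023 (19) without clone 3 and 0.07 (31) without clone 1. Taken over all 35 genes, the 95% confidence intervals reached from 0.785 to 1.26-fold without B12 and from 0.861 to 1.36-fold with it. The comparisons share clones but no libraries.

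Aurka (Aurora A, the kinase of the spindle poles) had the smallest p without B12, 0.0695, with a log2 fold change of 0.15 ± 0.072 (SE), with a 95% confidence interval from -0.014 to 0.31. It measured 19.5, 13.9 and 15.2 CPM in MEF, 21.7, 17.5 and 17.6 in MEF+B12, 23.4, 15.4 and 15.3 under OSKM, and 21.7, 17.6 and 18.1 under OSKM+B12. The OSKM and MEF values overlapped once the clones were pooled, and with B12 the difference was 0.017 ± 0.072 (SE). Kif20a, a cytokinesis kinesin, was next at 0.13 ± 0.063 (SE), and its differences within clones 1, 2 and 3 were 0.25, 0.044 and 0.072. Aurkb was higher in the OSKM library in 6 of 6 same-clone pairs, as were 7.34% of all genes (8.26% were lower in 6 of 6, with 0 of 35 mitosis genes), by 0.13, 0.04 and 0.087 without B12 and 0.012, 0.19 and 0.03 with B12, and its adjusted p-values were 0.406 and 0.561 by edgeR. Kif11 had the smallest p with B12, 0.143, at 0.069 ± 0.044 (SE).

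Within clones, the direction of the 35 genes varied. Without B12, 27, 19 and 22 of 35 were higher under OSKM in clones 1, 2 and 3. With B12 the numbers were 8, 30 and 25. Clone 1 thus turned from mostly higher to mostly lower. The 35 genes of a library share that library's error and are not replicates. Without the OSKM clone 1 library the median without B12 was -0.012 and 0 of 35 were called (0.0256% of all genes), with 0 at an unadjusted p under 0.05 (11.5%). Leaving out clone 3, whose induced factors were lowest, raised the share of all genes called to 6.87% without B12 and 5.22% with it, and 0 of 35 mitosis genes were called in either, with 1 of 35 at an unadjusted p under 0.05 in each (24.2% and 18.5% of all genes). A test of clone differences in the induction response called 0 of 35 by edgeR (2.15% of all genes) and 0 by DESeq2 (3.11%), with 1 of 35 at an unadjusted p under 0.05 (14.8% of all genes), Plk1 at 0.0362. Without the OSKM clone 1 library it called 0 (4.3%) and left 7 of 35 at such a p (17.7%). In this test, libraries of a clone and state with and without B12 stood in as replicates. These libraries come from 1 embryo, so the p-values of the test do not measure the spread between embryos.

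**Figure D4:**
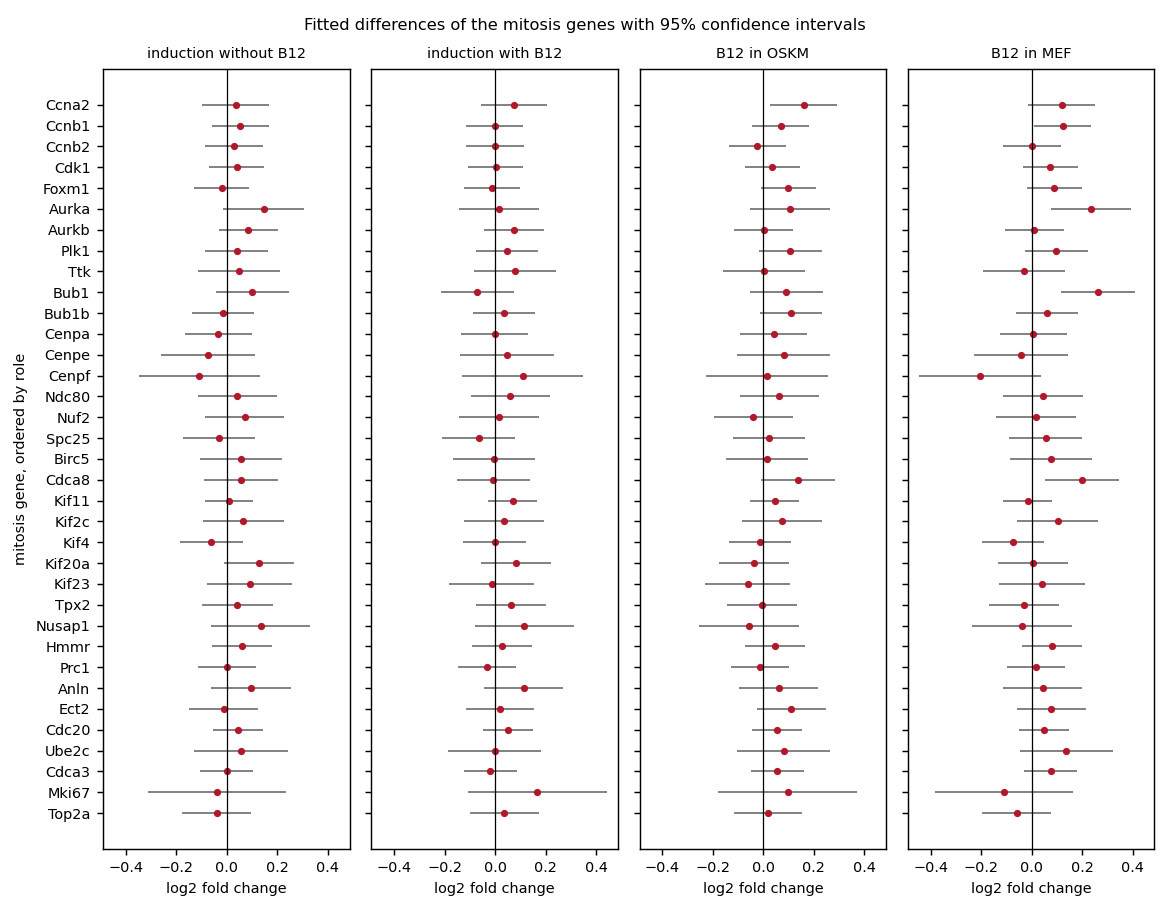
Fitted log2 fold changes (points) and 95% confidence intervals (lines) of the 35 mitosis genes in the 4 comparisons, from 1 edgeR fit of 12 libraries with clone as a block. Intervals cross 0 for every gene in both induction panels, and stay above 0 for Ccna2 for B12 in OSKM and for Ccnb1, Aurka, Bub1 and Cdca8 for B12 in MEF, with 0 of 35 passing after adjustment in any panel.

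The second comparison asks what vitamin B12 did in induced and in uninduced cells. No mitosis gene passed the threshold here either, though the smallest p-values of the study's comparisons for this set were found in it, all for genes that were higher with B12. In OSKM cells 0 of 35 were called by edgeR (1.06% of all genes) and 1 had an unadjusted p under 0.05 (9.82% of all genes). In MEF cells 0 were called (1.38%) and 4 had an unadjusted p under 0.05 (10.3%). The mean of both B12 differences called 0 (3.84%) and left 7 of 35 at an unadjusted p under 0.05, where 15.5% of all genes stood, and the 7 were higher with B12 (8.75% of all genes had such a p and were higher). DESeq2 called 0, 0 and 1 of 35 (2.02%, 2.45% and 4.87% of all genes). The median difference was 0.048 in OSKM, 0.045 in MEF and 0.046 for the mean, against -0.007, -0.015 and -0.013 over all genes. For the mean of both, the 95% confidence intervals of the 35 genes reached from 0.832 to 1.22-fold.

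Bub1, the kinase that recruits checkpoint proteins to kinetochores, measured 20.3, 12.7 and 14.5 CPM in MEF, 23.5, 15.96 and 17.3 in MEF+B12, 21.1, 14.8 and 14.9 under OSKM, and 20.5, 16.4 and 16.6 under OSKM+B12. The MEF+B12 value exceeded the MEF value in every clone, and the OSKM+B12 value exceeded the OSKM value in clones 2 and 3. Its mean B12 difference was 0.18 ± 0.047 (SE), with a 95% confidence interval from 0.074 to 0.28 (edgeR adjusted p = 0.0686), it was the gene DESeq2 called (adjusted p = 0.0487), and over 10 alternative settings its adjusted p ran from 0.0487 to 0.998. Cdca8, the borealin subunit that helps to bring Aurora B to the centromere, measured 22.1, 15.2 and 17.3 CPM in MEF, 24.4, 19.4 and 18.8 in MEF+B12, 24.4, 16.5 and 16.3 under OSKM, and 24.4, 19.1 and 18.8 under OSKM+B12. It was higher with B12 in 6 of 6 same-clone pairs, though by no more than 0.00028 in OSKM of clone 1, and its mean difference was 0.17 ± 0.047 (SE), with a 95% confidence interval from 0.065 to 0.27 (edgeR adjusted p = 0.0843). For Aurka, whose values are given above, the mean difference was 0.17 ± 0.051 (SE), with a 95% confidence interval from 0.058 to 0.28 (edgeR adjusted p = 0.114), higher in 5 of 6 pairs. Ccna2, cyclin A2, measured 55.3, 38.2 and 42.1 CPM in MEF, 57.9, 42.9 and 45.9 in MEF+B12, 59.3, 37.6 and 42.7 under OSKM, and 57.95, 47.2 and 48.8 under OSKM+B12. Clones 2 and 3 carried the difference in OSKM, where Ccna2 was the 1 gene with an unadjusted p under 0.05 (0.0218), and its mean difference was 0.14 ± 0.042 (SE), with a 95% confidence interval from 0.046 to 0.23 (edgeR adjusted p = 0.119).

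These calls changed with the libraries included. Without the OSKM clone 1 library, edgeR called 3 of 35 for the mean B12 difference (4.03% of all genes) and left 10 at an unadjusted p under 0.05 (16.4%), the called genes being Aurka at 0.22 (adjusted p = 0.0128), Cdca8 at 0.20 (0.0234) and Ccna2 at 0.17 (0.0257). Without all of clone 1 it called 2 (2.75%), Ccna2 at 0.20 (0.0292) and Aurka at 0.25 (0.0321), with 15 of 35 at an unadjusted p under 0.05 (13.6%). Without clone 2 it called 0 (0.176%), with 1 of 35 at an unadjusted p under 0.05 (9.35%), and without clone 3 it called 0 (1.65%), with 5 (11.2%). For B12 in OSKM, leaving out the OSKM clone 1 library gave 0 calls (0.718%), 7 of 35 at an unadjusted p under 0.05 (8%) and a median of 0.074, and leaving out clone 2 turned the median to -0.022.

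Plk1, Ccnb1 and Bub1b were, with Cdca8, the mitosis genes higher with B12 in 6 of 6 same-clone pairs (8% of all genes were, and 7.64% were lower in 6 of 6, where 0 of 35 mitosis genes stood). Plk1 differed by 0.11, 0.13 and 0.056 in MEF and 0.08, 0.13 and 0.11 in OSKM of clones 1, 2 and 3, with a mean of 0.10 ± 0.04 (SE), with a 95% confidence interval from 0.014 to 0.19. Ccnb1 differed by 0.17, 0.091 and 0.11 in MEF and 0.041, 0.055 and 0.11 in OSKM, with a mean of 0.10 ± 0.036 (SE), and Foxm1 had a mean of 0.094 ± 0.035 (SE). These steps were small beside the clone difference of the same genes, and their adjusted p-values by edgeR were 0.237, 0.218 and 0.216. The kinesins and spindle genes were split, with 4 of 9 higher for the mean difference, and of the kinetochore genes 4 of 6 were higher. Cenpf had the lowest difference in MEF, -0.20 ± 0.11 (SE), with a 95% confidence interval from -0.45 to 0.037, and Mki67 and Top2a were at -0.0072 ± 0.088 (SE) and -0.021 ± 0.044 (SE) for the mean.

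**Figure D5:**
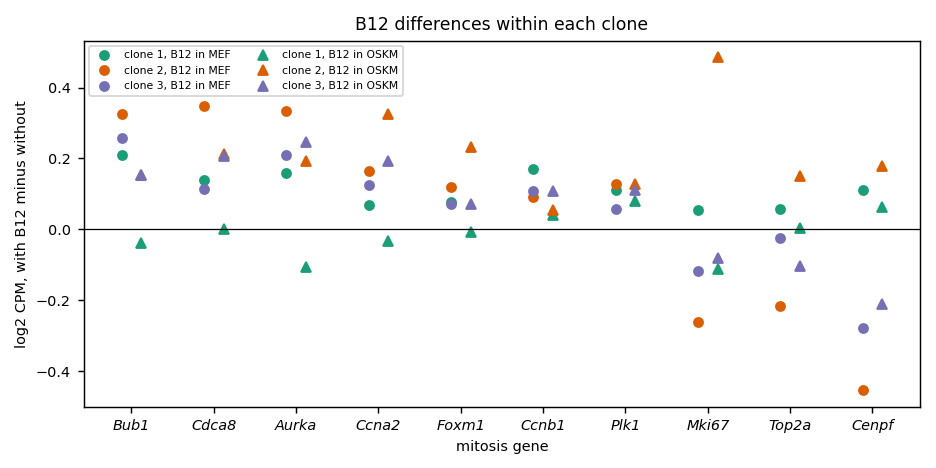
Log2 CPM with B12 minus without, within each clone (colour), in MEF (circles) and OSKM (triangles), for the 7 mitosis genes of smallest p for the mean B12 difference and for Mki67, Top2a and Cenpf. Ccnb1 and Plk1 are above 0 in 6 of 6 pairs, Cdca8 too with OSKM of clone 1 close to 0, while Mki67, Top2a and Cenpf scatter on both sides of 0.

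The B12 difference did not pass a test of change between OSKM and MEF in any of the 35 genes (0 of 35 called, with 0% of all genes, by edgeR and by DESeq2, and 0 of 35 at an unadjusted p under 0.05, with 1.42% of all genes). Without the OSKM clone 1 library the counts were 0 (0%) and 0 (1.38%). The smallest p was that of Bub1, 0.0905, at -0.17 ± 0.093 (SE), with a 95% confidence interval from -0.38 to 0.032. By clone, B12 in OSKM left 9, 34 and 26 of 35 genes higher in clones 1, 2 and 3, with medians of -0.068, 0.15 and 0.079. In MEF the numbers were 27, 22 and 22, with medians of 0.049, 0.039 and 0.03. Clone 1 thus went against clones 2 and 3 for B12 in OSKM, a pair that holds the library that stood apart, and, as given above, also for induction with B12, a pair that does not. The induction and B12 comparisons share libraries, so their values are not independent of each other.

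Markers of another cell type moved with B12. Of 15 macrophage markers, 8 rose in OSKM, 10 in MEF and 14 for the mean difference, where 1.06%, 1.38% and 3.84% of all genes were called. Their median was 0.56 for the mean. The summed level was 1406 to 2668 CPM in MEF, 2124 to 3532 in MEF+B12, 1442 to 2475 in OSKM and 2218 to 2880.2 in OSKM+B12. Fcgr1 and Mrc1, macrophage receptors, were among those that rose, at 0.95 ± 0.10 (SE) and 0.86 ± 0.076 (SE). Cx3cr1, a further marker of the list, was lower with B12 in every clone. It measured 5.23, 3.35 and 6.56 CPM in MEF, 3.89, 2.19 and 4.85 in MEF+B12, 1.91, 1.99 and 6.5 under OSKM, and 1.41, 1.43 and 4.99 under OSKM+B12. The part of the macrophage markers in the values of the mitosis genes was not tested. Of the 13 fibroblast markers, 12 had a mean B12 difference below 0 (median -0.11), 5 had an unadjusted p under 0.05, and 1 fell, Prrx1, a mesenchymal transcription factor, at -0.15 ± 0.034 (SE) (edgeR adjusted p = 0.0336), and 0 of the tested endothelial (4), muscle (2), neural (7) and epithelial (4) markers were called for B12.

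Long and short genes of the set differed in some pairs of libraries, a split and pairs chosen after the values were seen. Cenpe, Cenpf, Kif11, Kif23, Prc1, Anln, Mki67 and Top2a have over 7 kb of merged exons. For B12 in MEF of clone 2 the medians of these 8 and of the other 27 were -0.11 and 0.069 on the log2 scale, and over all genes tested the long and the other genes stood at -0.092 and 0.005. For induction with B12 in clone 2 they were 0.25 and 0.084, against 0.054 and -0.012 over all genes, and for B12 in OSKM of clone 3 -0.042 and 0.11, against -0.056 and 0.013. Over all 12 pairs of libraries, which share libraries, the long mitosis genes lay on the same side of the others as long genes did over all genes tested in 11. The exception was induction with B12 in clone 1, at -0.0078 and -0.057, against -0.0087 and -0.0051 over all genes. This count takes the side only, and some gaps were very small. For B12 in MEF of clone 1 the medians were 0.046 and 0.049, against -0.0106 and -0.0104 over all genes. For B12 in OSKM of clone 1 they were -0.077 and -0.049, against -0.0075 and -0.0057. Mki67 differed with B12 by 0.054, -0.26 and -0.12 in MEF and -0.11, 0.49 and -0.081 in OSKM of clones 1, 2 and 3. The part of length in these values was not tested.

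Other cell cycle genes were called for B12, where 3.84% of all genes were called for the mean difference, 1.38% in MEF and 1.06% in OSKM. Counts called for the mean were 2 of 39 kinetochore and checkpoint genes, 0 of 38 spindle and cytokinesis genes, 1 of 24 genes of entry into mitosis, 1 of 17 of the anaphase-promoting complex and 6 of 42 of S phase. Apart from S phase, these counts lay near the share of all genes or below it. For B12, Spdl1, which brings dynein to kinetochores, at 0.34 ± 0.065 (SE) and Incenp, the scaffold of the chromosomal passenger complex, at 0.20 ± 0.04 (SE) rose among 39 kinetochore and checkpoint genes for the mean difference (edgeR adjusted p = 0.0133 and 0.015). Nek2, a centrosome kinase, rose at 0.22 ± 0.054 (SE) among 24 genes of entry into mitosis, and Ube2s, which extends ubiquitin chains for the anaphase-promoting complex, at 0.12 ± 0.029 (SE) among 17 genes of that list. Cep55, a protein of the final cut between daughter cells, rose in MEF at 0.38 ± 0.075 (SE) among 38 spindle and cytokinesis genes and was not called for the mean. Of 42 genes of DNA replication and S phase, which precede mitosis, 6 rose for the mean B12 difference, with E2f2 at 0.33 ± 0.068 (SE), Fen1 at 0.25 ± 0.042 (SE) and Mcm5, a subunit of the replicative helicase, at 0.24 ± 0.029 (SE), and Mcm5 alone rose in OSKM and in MEF as well. The list medians for that comparison were 0.066 for S phase, 0.046 for the 35 mitosis genes, 0.044 for kinetochore, 0.019 for spindle, 0.039 for entry, 0.00345 for condensin and cohesin (0 of 22 called), -0.045 for the anaphase-promoting complex and -0.025 for the inhibitors (0 of 15 called). For induction, 0 genes of these 7 lists were called with or without B12. The test of clone differences in the induction response, whose replicates share an embryo, called Cdc25b, a phosphatase that activates CDK1 (edgeR adjusted p = 0.0245). It called no other gene of the 7 lists. Of the marker lists, it called Tek and Cdh5 (endothelial), Krt19 and Krt8 (epithelial) and Cx3cr1 and Adgre1 (macrophage), and of the factors Myc and Sox2.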

How the data were processed

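Poly(A) RNA of 12 mouse fibroblast cultures was sequenced as strand-specific read pairs. The authors aligned reads with STAR (2.5.2 per the submitters' processing notes) to mm10 (GRCm38) and used featureCounts, set to reverse-stranded, to count read pairs, with technical repeats added up. The table they deposited holds raw counts, unscaled, from 56971244 to 79236795 a library. How multi-mapping reads were treated is not given in the sources used here.

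Counts were tested in R 4.3.3 with edgeR 4.0.16 (filterByExpr by group, TMM scaling, quasi-likelihood F test, terms for group and clone, Benjamini-Hochberg adjustment over 19174 genes, threshold 0.05). DESeq2 1.42.0, its size factors, library totals, other filters, fits without the block, fits of the compared libraries alone and fits without each clone or the OSKM clone 1 library were alternatives. CPM use TMM-scaled totals, and log2 CPM a prior count of 2. A check for pairs of libraries with the same counts in every gene found 0. The procedure was tested on simulated data. Clone was a block because same-numbered libraries come from the same embryo. Deviations from group means correlated at 0.27 to 0.687 within clones. Exon lengths are from GENCODE M21 (GRCm38) and promoters from RefSeq. Counts carry no molecular identifiers. With clone as a block, p-values measure how treatment differences vary between cultures of 3 embryos, and differences in level between embryos are taken out. The test of clone differences in the induction response instead uses libraries of the same embryo as replicates.

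The 35 genes and the other lists were chosen with earlier results of these data known. By the rule for named genes, values in every library were given for listed genes (Mki67, Top2a, Ccnb1, Cdk1, Foxm1, Plk1, Aurka, Aurkb, Bub1, Cenpa, Cdc20, Ube2c, Birc5 and Kif11) and could be given for the 10 of smallest p in a comparison, and from other lists up to 3 called genes of largest change were named. Nusap1 was printed in full after its values were seen.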

Additional observations from a re-analysis of the deposited data

How the results depend on the processing

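Of 7 tests of the 35 mitosis genes, 5 gave 0 calls under every alternative run. For the mean B12 difference, the count of 0 became 1 with DESeq2 in place of edgeR and 1 with library totals in place of TMM, Bub1 in each case, and ran from 0 to 3 when clones 1, 2 or 3 or the OSKM clone 1 library were left out. For B12 in MEF it became 2 (Bub1 and Aurka) when only the compared libraries were fitted and stayed at 0 in each leave-out fit. Without the replicate block for clone, the fits called 0 mitosis genes in each of 6 comparisons, and 90 of all genes in place of 736 for the mean B12 difference. Library totals moved the medians of the 35 genes up, to 0.094 for induction without B12 and 0.077 for B12 in MEF. The cause of these changes was not tested. Of 1195 values of named genes under alternatives, 1186 kept their side of the threshold, and no called value changed direction. The 34 genes with clone 1 on top were also 34 without the OSKM clone 1 library, 35 with library totals and 34 with DESeq2 size factors, settings added after the values were seen. Each mitosis gene had at least 437 counts in every library, and counting error was not separated from the spread between cultures.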
